A study of Mus musculus with 18 samples.

Results

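The riboflavin-deficient diet (B2D) was compared with its control diet (Ctrl) in the fasted mouse liver in 2 RNA-seq experiments, without and with the drug fenofibrate (FF), and the quantity described here is the difference between these 2 diet effects. For each gene it was computed as (B2D+FF minus Ctrl+FF) minus (B2D minus Ctrl) on the log2(FPKM + 1) scale, where FPKM is the fragment count scaled to gene length and sequencing depth. A positive difference means that B2D moved the gene further upward, or less far downward, in the mice given fenofibrate. The genes were the protein-coding ones whose mean FPKM was at least 0.5 in each experiment, joined by Ensembl gene identifier. They numbered 9937 of 22046 protein-coding genes and of 54532 genes listed. Another 345 protein-coding genes reached the minimum only without fenofibrate, 272 reached it only with fenofibrate, and 11492 reached it in neither. Just inside the minimum was Fign, with mean FPKM of 0.868816 and 0.500092, and just outside was Senp1, with 0.643626 and 0.499959.

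All 18 mice were wild-type C57BL/6J males, put on their diets from 4 wk of age, and all were fasted overnight before the liver was taken. Without fenofibrate, 5 Ctrl and 5 B2D mice were fed for 1 month. With fenofibrate, 4 Ctrl+FF and 4 B2D+FF mice were fed for 9 wk, were gavaged with the drug from week 7 to week 9, and received the last dose 2 hr before harvest. The mice with fenofibrate were thus also older, longer on diet and normalized in a separate table, and these factors cannot be told apart in the difference. Each library came from a separate mouse, and mice are numbered within a group for naming alone.

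Riboflavin (vitamin B2) is the precursor of FMN and FAD, the flavin cofactors of acyl-CoA dehydrogenases, respiratory complexes I and II, and many other oxidoreductases. Fenofibrate is an agonist of PPARα, the nuclear receptor that raises fatty acid oxidation genes in the fasted liver. The integrated stress response is the program in which phosphorylation of eIF2α favours translation of the factor ATF4, and its known targets include Fgf21, a hormone of fasting, and Trib3, a pseudokinase.

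Libraries held 15320729 to 21898502 gene-assigned reads, and libraries of the same group correlated with Pearson r between 0.979 and 0.994 across genes on the log2 scale. All 10 hepatocyte markers were measured and none was called in either experiment. Their summed FPKM was 32200 to 42200 in Ctrl, 32900 to 46800 in B2D, 22100 to 25300 in Ctrl+FF and 19200 to 22200 in B2D+FF. The share of reads on mitochondrial genes ran from 5.2% to 6.6% in Ctrl, 5.8% to 9.4% in B2D, 8.0% to 9.3% in Ctrl+FF and 6.7% to 8.8% in B2D+FF. Fewer cells of a type and less RNA per cell cannot be told apart in these whole-tissue libraries.

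The diet effects of the 2 experiments were first set side by side. Throughout, a gene said to rise or fall with fenofibrate did so in B2D+FF against Ctrl+FF. A gene said to rise or fall without fenofibrate did so in B2D against Ctrl. Without fenofibrate, 235 genes fell and 110 rose (2.36% and 1.11% of the genes tested, limma, Benjamini-Hochberg adjusted p under 0.05). With fenofibrate, 303 fell and 340 rose (3.05% and 3.42%). After upper-quartile rescaling these splits became 199 lower and 132 higher without fenofibrate, and 384 lower and 242 higher with it. With fenofibrate the excess of higher calls also turned to an excess of lower calls with the length trend removed (381 and 326), with the median effect subtracted (335 and 298) and with quantile normalization (331 and 324). Of the called genes, 119 were shared, which is 34.5% of those called without and 18.5% of those called with fenofibrate. The difference itself was called for 12 genes, 6 in each direction (0.0604% and 0.0604%). At an unadjusted p under 0.05 it was negative in 527 genes and positive in 734 (5.3% and 7.39%). The medians over all genes tested were -0.003 without fenofibrate, 0.017 with it and 0.024 for the difference, which was positive in 54.2% of genes.

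Genes were sorted into 4 classes by these tests, and the class of opposite effects can overlap the single-experiment classes. A gene was classed as alike when it was called in both experiments with the same sign and the difference was not called, which held for 88 lower genes (0.886%) and 28 higher genes (0.282%). A gene was classed to a single experiment when it was called there, not called in the other, and the difference was called. This held for 3 genes without fenofibrate (0.0302%) and 6 with it (0.0604%). Opposite effects required a called difference with effects of opposite sign, each at an unadjusted p under 0.05 in its own table, which held for 4 genes (0.0403%). Among these, Maff and Dnpep were also classed to the experiment with fenofibrate, and Gypc to that without it. Mup3 and Mup12, called in both with the same sign and for the difference, were in no class. Most called genes belonged to none of these classes. Of 223 genes called without fenofibrate alone and without a call of the difference, 184 (82.5%) had the same sign with fenofibrate and 79 of these an unadjusted p under 0.05. Of 518 such genes called with fenofibrate alone, 421 (81.3%) had the same sign without it, 145 of them with an unadjusted p under 0.05. The median ratio of the other effect to the called effect was 0.33 and 0.36 in these 2 sets. A call in a single experiment was thus accompanied by a call of the difference in few genes.

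**Figure D1:**
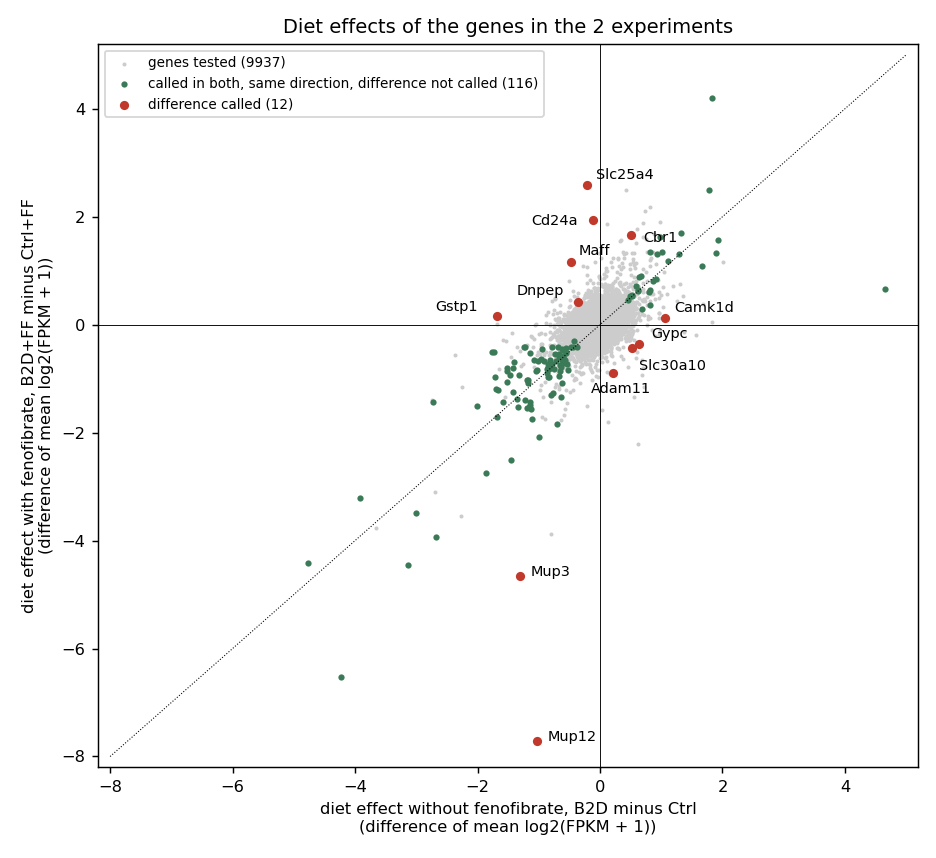
Diet effect of each of the 9937 genes without fenofibrate (x axis, B2D minus Ctrl) against that with fenofibrate (y axis, B2D+FF minus Ctrl+FF), both as differences of mean log2(FPKM + 1). Green points are the 116 genes called alike, red points the 12 genes whose difference was called, and the dotted line marks equal effects; across all genes Pearson r was 0.54 and Spearman rho 0.35.

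Leaving out single mice changed these counts. The difference was called for 6 genes without Ctrl+FF mouse 2, 7 without Ctrl+FF mouse 3 and 7 without B2D+FF mouse 4, and for 19 without Ctrl mouse 3 and 30 without B2D mouse 1. The 345 genes called without fenofibrate became 142 without Ctrl mouse 2, 146 without Ctrl mouse 4, 188 without Ctrl mouse 1 and 219 without B2D mouse 4. The 643 called with fenofibrate became 235 without Ctrl+FF mouse 1, 244 without Ctrl+FF mouse 2, 352 without B2D+FF mouse 4, 364 without Ctrl+FF mouse 3 and 391 without B2D+FF mouse 1. The 116 genes called alike became 64 without Ctrl+FF mouse 1, 67 without Ctrl mouse 2, 69 without Ctrl mouse 4 and 74 without Ctrl+FF mouse 2.

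To go beyond single genes, 65 lists of genes of known function were described by the calls of their members and by their median effects. Counts of called members are to be read beside the shares over all genes tested. These were 2.36% lower and 1.11% higher without fenofibrate, and 3.05% lower and 3.42% higher with it. In 59 of the 65 lists no member was called for the difference. The median difference was above 0 in 45 lists and below 0 in 18, beside 0.024 over all genes tested, and 18 lists had a median difference of at least 0.2 in size. The difference also moved with gene length. In the shortest quintile of the genes, up to 2353 bases, the medians were -0.117 without and 0.039 with fenofibrate and 0.157 for the difference, whereas in the longest quintile, from 7261 bases, they were 0.091, 0.001 and -0.087. Among the mice, the shortest genes were lowest in B2D mouse 3, at -0.24, and highest in B2D+FF mouse 1, at 0.14 (median deviation from the control mean). When each library's trend with gene length was removed, an alternative chosen after the data were seen, the median differences of these quintiles were 0.004 and -0.003. Of the 18 lists, 7 then still had a median difference of at least 0.2 in size, and 6 of the 65 changed sign. List medians are therefore given with and without this trend where it moved them.

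**Figure D2:**
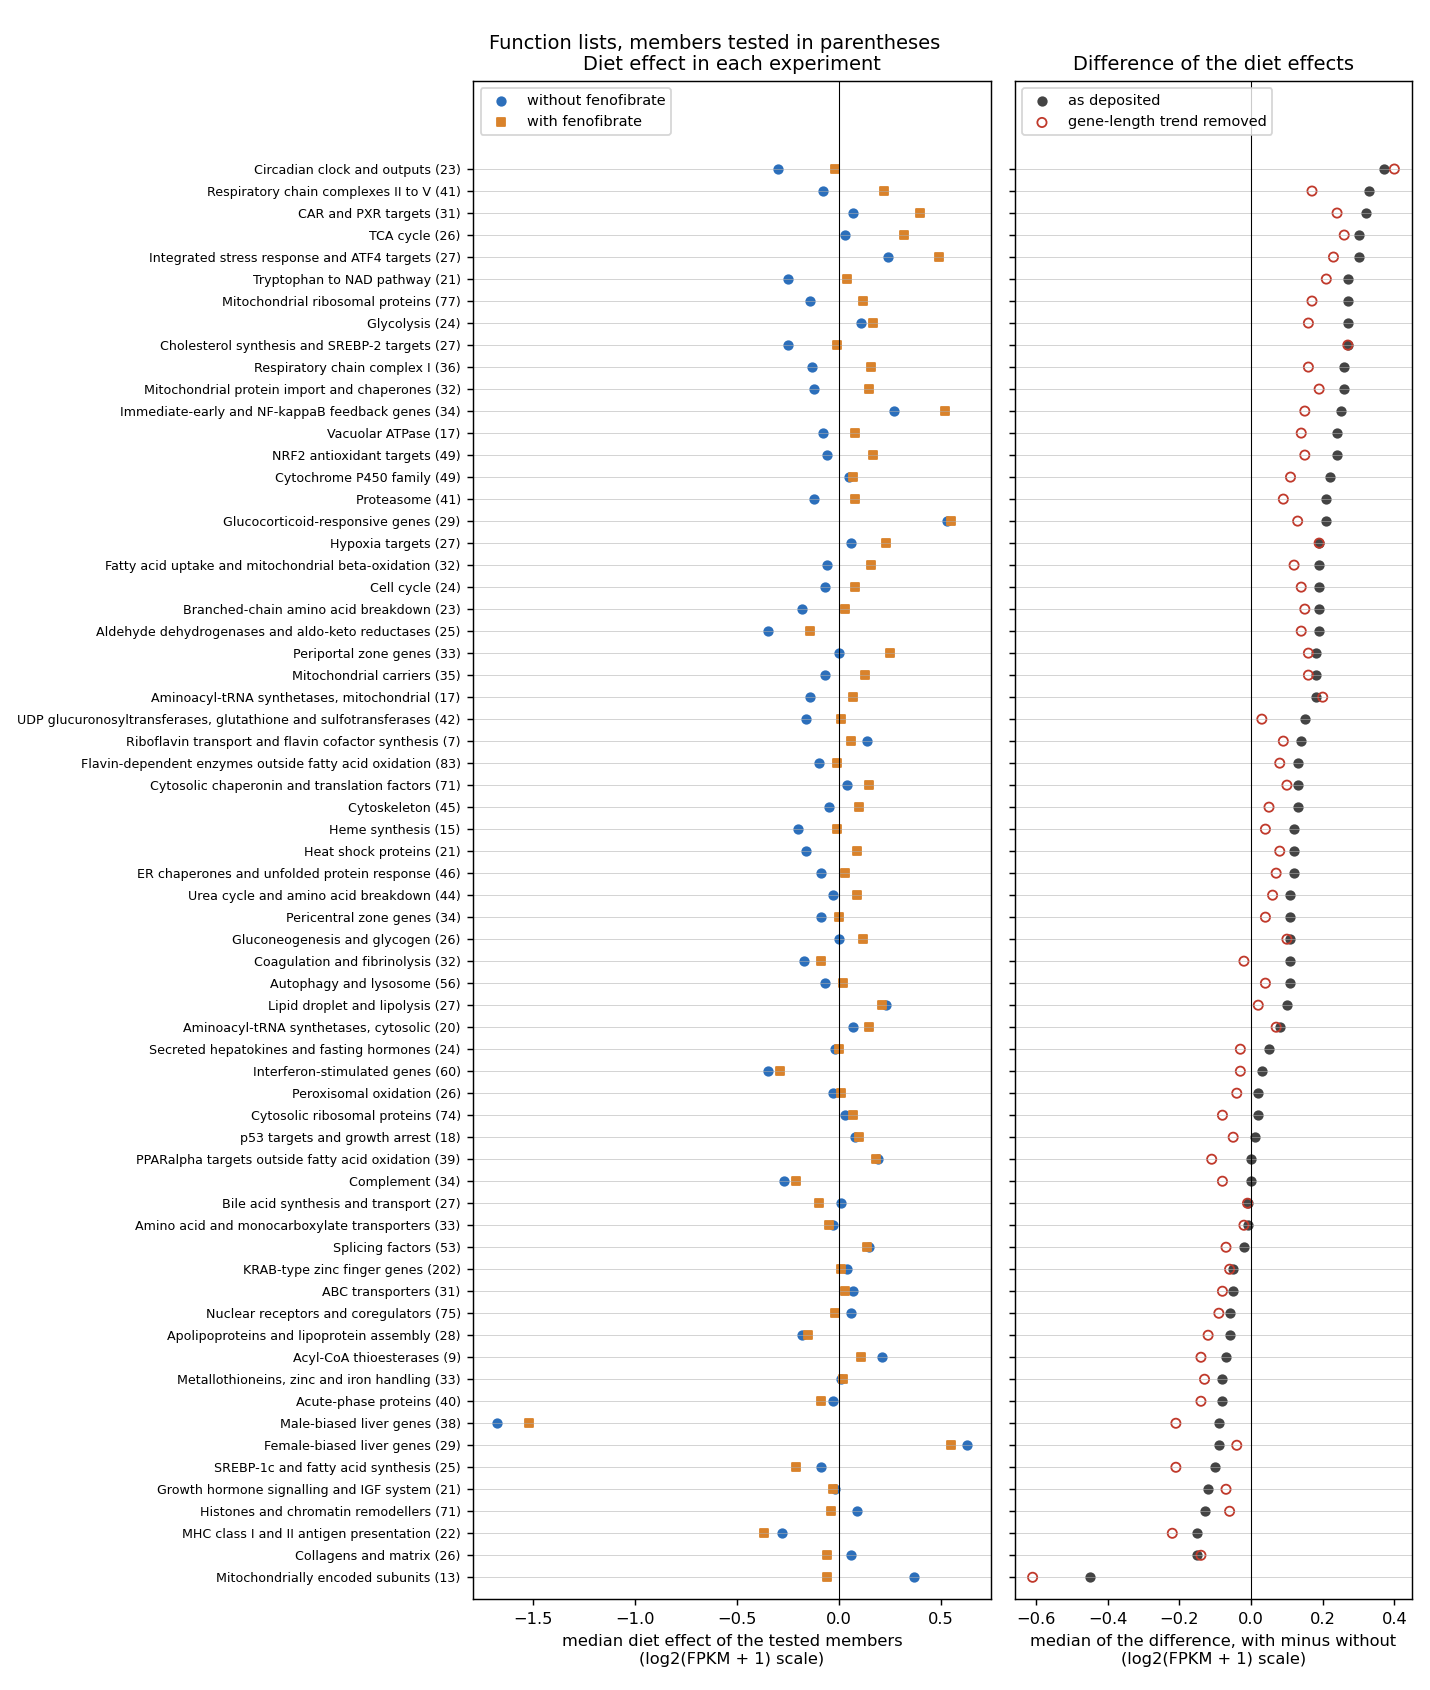
Median effects of the 65 function lists, ordered by the difference, with the members tested in parentheses. The left panel gives the diet effect without (blue circles) and with fenofibrate (orange squares), and the right panel the difference as deposited (dark grey) and after removal of the gene-length trend (open red), all on the log2(FPKM + 1) scale; male-biased genes are lowest in both experiments, and mitochondrially encoded subunits have the most negative difference.

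**Figure D3:**
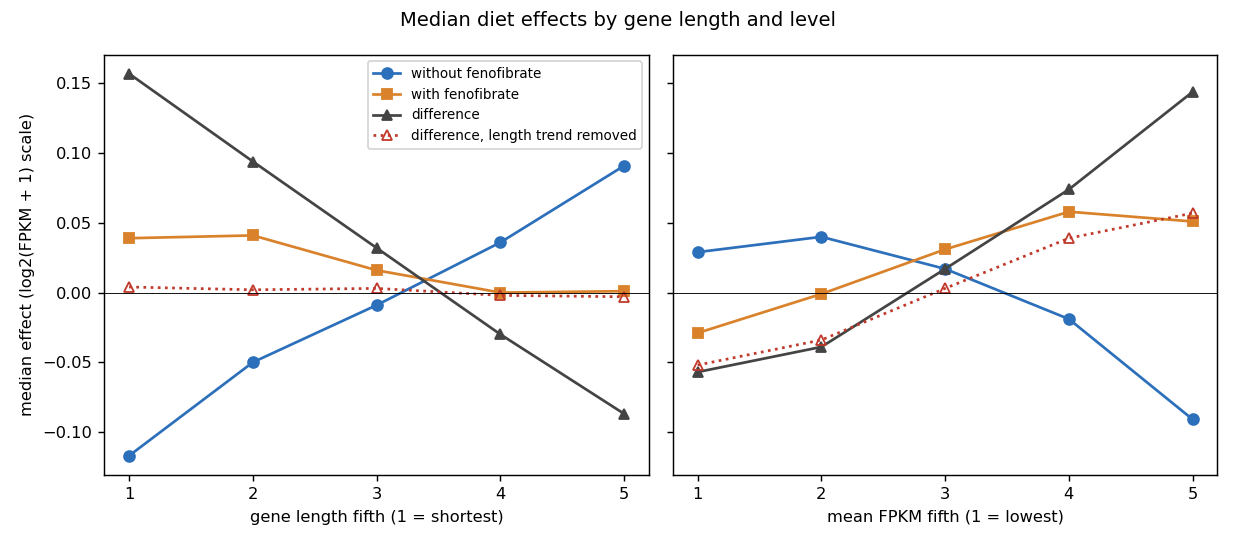
Median diet effects and median difference in quintiles of the genes by length and by mean FPKM, on the log2(FPKM + 1) scale. By length the difference runs from 0.157 in the shortest quintile to -0.087 in the longest, and by level from -0.057 in the lowest quintile to 0.144 in the highest.

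The function that fell most in both experiments was the male-biased liver program, the genes that pulsatile growth hormone and STAT5 keep high in male mice. Of 38 male-biased genes tested, 32 fell without and 25 with fenofibrate, 20 of them alike, and none rose. The median effects were -1.68 and -1.52, and the median difference was -0.09, or -0.21 with the length trend removed, and it turned to 0.21 without B2D mouse 3. In every B2D and B2D+FF mouse the mean of the list was below that of every control mouse of the same experiment. The B2D mice lay at -0.88 to -2.43 from the Ctrl mean and the B2D+FF mice at -1.75 to -2.21 from the Ctrl+FF mean. The 32 calls became 21 without Ctrl mouse 2. Single members still differed between the experiments, since 2 members (Mup3 and Mup12) were called lower and Gstp1 higher for the difference. Many of these genes, among them the Mup, Serpina1, Cyp4a12 and Hsd3b copies, are near identical in sequence, and reads can be split between the copies.

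Serpina1e, a liver-secreted serine protease inhibitor, fell by 3.92 ± 0.54 (SE) without and by 3.21 ± 0.47 with fenofibrate (adjusted p = 0.00236 and 0.00399). Its FPKM was 1020 to 1740 in Ctrl, 16.4 to 250 in B2D, 40.7 to 229 in Ctrl+FF and 6.04 to 12.7 in B2D+FF, without overlap within either experiment. Ghr, the growth hormone receptor, fell by 0.73 ± 0.15 and by 0.68 ± 0.12 (adjusted p = 0.0156 and 0.0103). Its FPKM was 46.6, 54.6, 38.6, 60.0 and 42.9 in Ctrl against 27.8, 22.4, 32.5, 27.3 and 34.3 in B2D, and 34.2 to 40.6 in Ctrl+FF against 18.3 to 26.7 in B2D+FF. All B2D and B2D+FF mice were below their controls, and the difference was 0.05 ± 0.20 (adjusted p = 0.942).

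Female-biased genes moved the other way in both experiments. Of 29 tested, 10 rose without and 12 with fenofibrate, 8 of them alike, and none fell. The medians were 0.63 and 0.55, with -0.09 for the difference. The 10 calls became 5 without Ctrl mouse 4, and the 12 became 7 without B2D+FF mouse 4. Slco1a4, an uptake carrier for bile acids and drugs, rose by 1.78 ± 0.24 and 2.49 ± 0.15 (adjusted p = 0.00236 and 2.84e-05). Cyp39a1, an oxysterol hydroxylase, rose by 0.98 ± 0.18 and 1.63 ± 0.19 (adjusted p = 0.00918 and 0.00124). The largest gap in this list was in Cyp2b9, a female-biased P450 with near-identical relatives, which rose by 4.66 ± 0.65 and by 0.66 ± 0.17 (adjusted p = 0.00236 and 0.0498). Its FPKM was 0 to 1.21 in Ctrl, 5.44 to 152 in B2D, 123 to 176 in Ctrl+FF and 176 to 283 in B2D+FF. The difference of -4.002 ± 0.83 did not pass the threshold (adjusted p = 0.0635), and the Ctrl+FF levels were far above those of Ctrl.

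Interferon-stimulated genes, the antiviral set switched on by interferons through the promoter element called the ISRE, fell alike. Of 60 tested, 14 fell without and 16 with fenofibrate, 8 of them alike, and none rose. The medians were -0.35 and -0.29, with 0.03 for the difference, which became -0.03 under upper-quartile rescaling and with the length trend removed, and -0.02 without B2D mouse 3. For the mean of the list, the groups did not overlap in either experiment, although B2D+FF mouse 3, at -0.21, was close to Ctrl+FF mouse 4, at -0.19. The 14 calls became 4 without Ctrl mouse 4, and the 16 became 5 without Ctrl+FF mouse 2. Bst2 (tetherin), which holds budding virus at the cell surface, fell by 0.66 ± 0.17 and by 0.85 ± 0.12 (adjusted p = 0.0466 and 0.00263). Ifit3, an interferon-induced effector of the IFIT family, fell by 0.87 ± 0.20 and by 0.89 ± 0.15 (adjusted p = 0.0302 and 0.00842). Apol9b, an interferon-responsive apolipoprotein L gene, fell by 1.14 ± 0.22 and by 1.43 ± 0.22 (adjusted p = 0.0127 and 0.00477), and its reads can be shared with the similar copy Apol9a. Ifit1, of the same family as Ifit3, fell by 1.04 ± 0.22 without fenofibrate (adjusted p = 0.0212). Its effect with fenofibrate was 0.02 ± 0.28 (adjusted p = 0.981), and the difference of 1.05 ± 0.39 was not called (adjusted p = 0.281).

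To show what these promoters hold, the 250 bases before each RefSeq gene start (build GRCm38.p6) were searched on both strands for the core of the ISRE, GAAANNGAA. It was present in 21 of 46 promoters of interferon-stimulated genes matched (45.7%), beside 6.0% of 7904 promoters of genes tested and 7.2% of all 27025 promoters. A match is a description of the letters alone. The core was also in the promoter of Ifit1, which was not called with fenofibrate. It was present as well in promoters of genes called in neither experiment, such as Gbp2. The Ifit3 and Apol9b matches are read on the other strand. The lines below give 30 bases around a match for Bst2, Ifit3 and Apol9b, in the direction of transcription, with the match in capitals. They lie at chr8:71537577-71537606 on the minus strand for Bst2, chr19:34583398-34583427 on the plus strand for Ifit3 and chr15:77729026-77729055 on the plus strand for Apol9b.
Bst2: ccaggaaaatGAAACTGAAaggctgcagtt
Ifit3: ttaagtctgtTTCAGTTTCtactttcctct
Apol9b: aggtgagactTTCAGTTTCcatttcccagt

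Complement genes, secreted by the liver into plasma, fell in both experiments as well. Of 34 tested, 7 fell without and 9 with fenofibrate, 6 of them alike, with medians of -0.27, -0.21 and 0.00 for the difference. The 7 calls became 3 without Ctrl mouse 2, and the 9 became 6 without B2D+FF mouse 4. C6, C8a and C9, components of the membrane attack complex, fell by 1.69 ± 0.35, 1.34 ± 0.24 and 1.45 ± 0.26 without fenofibrate. With fenofibrate they fell by 1.71 ± 0.19, 1.52 ± 0.20 and 2.52 ± 0.24 (adjusted p at most 0.018 in all 6 tests). The C9 difference was -1.07 ± 0.39 (adjusted p = 0.281). C6 and C8a were also members of the male-biased list. Among the MHC genes of antigen presentation, none of 22 was called without fenofibrate and 5 fell with it, and the medians were -0.28 and -0.37. Those 5 calls became 0 without B2D+FF mouse 4 and 10 without B2D+FF mouse 3.

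Glucocorticoid-responsive genes rose in both experiments. Of 29 tested, 7 rose without and 10 with fenofibrate, 3 of them alike (Mt1, Lepr and Igfbp1), and none fell. The medians were 0.53 and 0.55 and the difference 0.21, or 0.13 with the length trend removed and 0.02 without B2D+FF mouse 2. The 7 calls became 3 without B2D mouse 2, and the 10 became 5 without Ctrl+FF mouse 2. Mt1, a metal-binding metallothionein, rose by 1.93 ± 0.32 and 1.57 ± 0.26 (adjusted p = 0.00585 and 0.00807). Lepr, the leptin receptor, rose by 1.89 ± 0.30 and 1.33 ± 0.23 (adjusted p = 0.00437 and 0.00921). Tat, the tyrosine aminotransferase, rose with fenofibrate by 1.35 ± 0.24 (adjusted p = 0.00921), beside 0.76 ± 0.32 without it (adjusted p = 0.201). Cdkn1a, the cell cycle inhibitor p21, rose without fenofibrate by 1.69 ± 0.31 (adjusted p = 0.00974), beside 0.38 ± 0.36 with it (adjusted p = 0.556).

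Outside these lists, Inhbb showed nearly equal effects from nearly equal control levels. It encodes the βB subunit of activin and inhibin. Its FPKM was 0.304, 0.473, 1.08, 0.261 and 0.393 in Ctrl against 1.52, 3.11, 2.53, 2.6 and 3.72 in B2D, and 0.201, 0.843, 0.311 and 0.388 in Ctrl+FF against 2.28, 3.55, 1.93 and 2.43 in B2D+FF. The effects were 1.29 ± 0.17 and 1.30 ± 0.15 (adjusted p = 0.00195 and 0.00124), and the difference was 0.01 ± 0.25. Vldlr, a lipoprotein receptor, Thbd, the thrombin cofactor thrombomodulin, Slc16a5, a monocarboxylate carrier, and Actg1, cytoplasmic actin, also rose alike, while Tk1, a thymidine kinase, Mmp15, a membrane metalloproteinase, and Fitm1, a lipid droplet protein, fell alike.

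**Figure D4:**
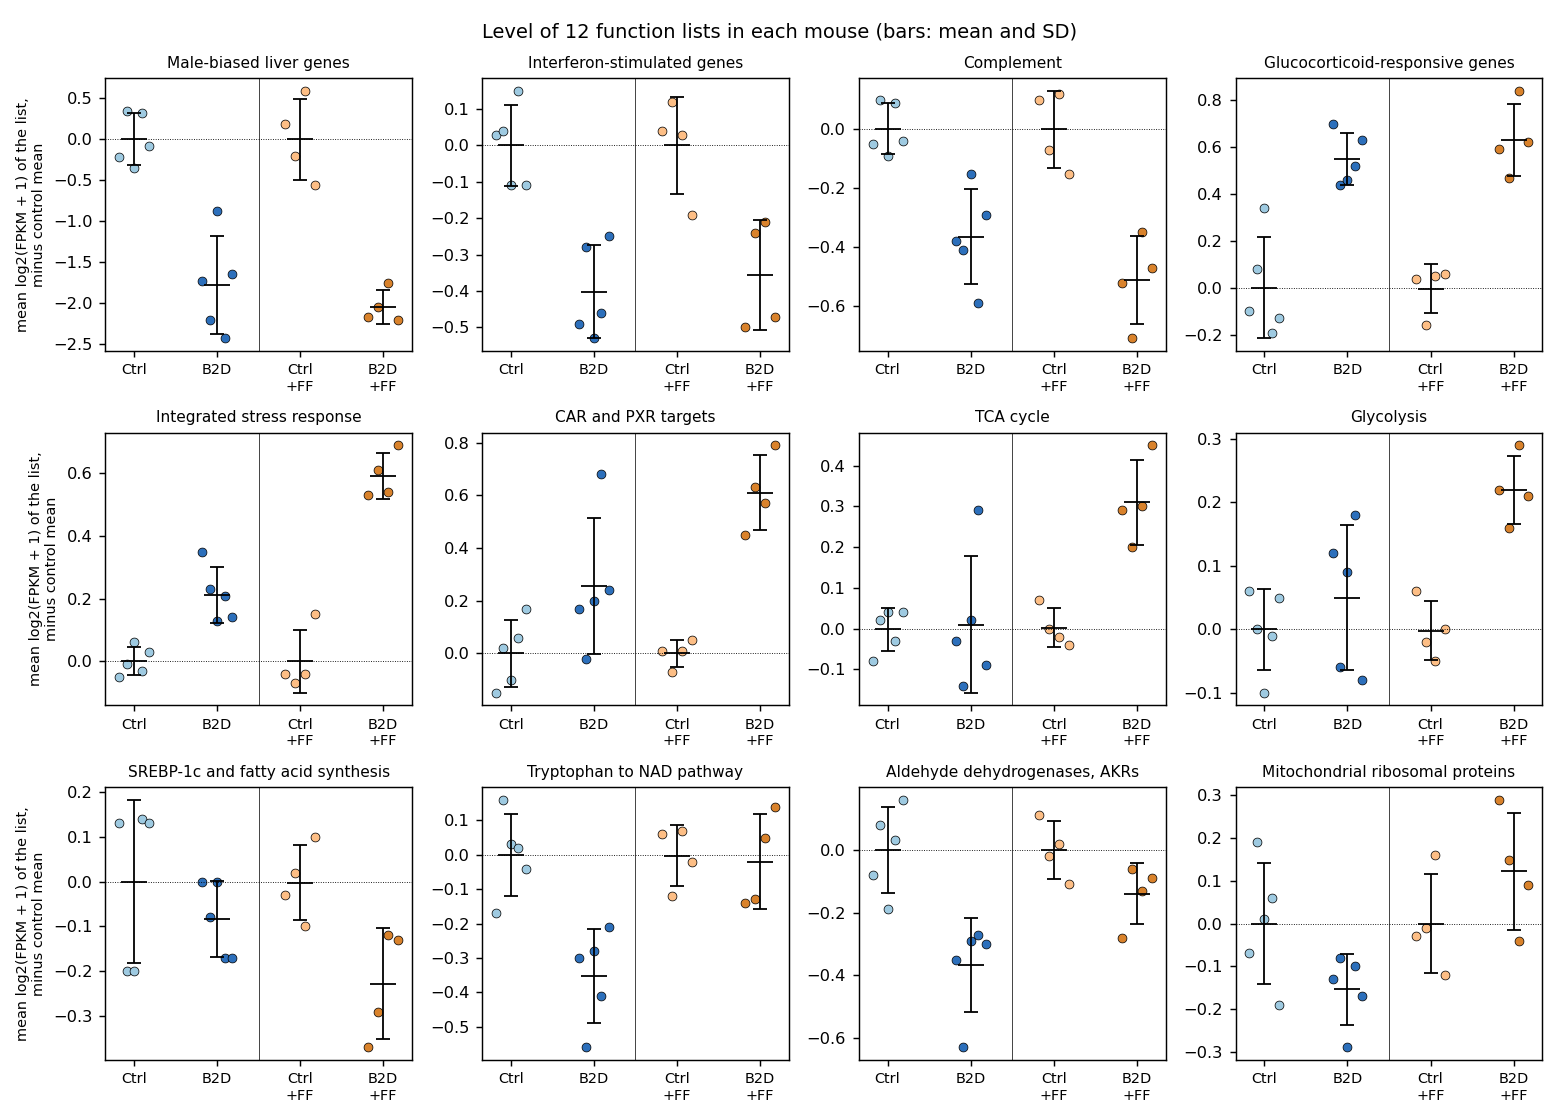
Mean log2(FPKM + 1) of the members of 12 function lists in each mouse, minus the mean of the control mice of the same experiment. Points are mice, bars the group mean and SD (n = 5 without and n = 4 with fenofibrate). The male-biased, interferon and complement lists are below all controls in both experiments. The TCA cycle and glycolysis lists are above all controls with fenofibrate alone, a pattern held by 13 of the 65 function lists.

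A second set of functions was called mainly in the mice given fenofibrate. In the lists of this set, the difference was called for no member apart from 3 NRF2 targets. The integrated stress response was higher than in controls in both experiments for the mean of the list, and its median was larger with fenofibrate. Of 27 targets tested, 3 rose without fenofibrate (Atf5, Sesn2 and Vldlr) and 8 with it, and none fell. The medians were 0.24 and 0.49, and the difference was 0.30, or 0.23 with the length trend removed, with 6 members at an unadjusted p under 0.05, all higher. The mean of the list was 0.13 to 0.35 above the Ctrl mean in the B2D mice and 0.53 to 0.69 above the Ctrl+FF mean in the B2D+FF mice, without overlap with the controls in either experiment. The 3 calls became 0 without Ctrl mouse 1, and the 8 became 4 without Ctrl+FF mouse 1. Trib3 rose with fenofibrate by 0.91 ± 0.15 (adjusted p = 0.00783), beside 0.51 ± 0.20 without it (adjusted p = 0.185). Slc3a2, the heavy chain of amino acid exchangers, rose by 0.72 ± 0.14 (adjusted p = 0.0127), beside 0.16 ± 0.13 (adjusted p = 0.518). Gars, a glycyl-tRNA synthetase, rose by 0.57 ± 0.11 (adjusted p = 0.0124), beside 0.16 ± 0.12 (adjusted p = 0.457). Sesn2, a stress-induced regulator of growth signalling, rose without fenofibrate by 0.49 ± 0.12 (adjusted p = 0.0359), beside 0.35 ± 0.24 with it.

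Fgf21 had the largest gap in the stress response list. Its FPKM was 12.6, 18.7, 11.4, 17.0 and 15.3 in Ctrl, 23.9, 25.5, 24.7, 10.9 and 20.3 in B2D, 1.28, 3.83, 1.09 and 4.1 in Ctrl+FF and 11.3, 17.3, 12.4 and 37.9 in B2D+FF. The B2D mice overlapped Ctrl, while all B2D+FF mice were above all Ctrl+FF mice and within or above the range of B2D. The effect was 0.43 ± 0.21 without (adjusted p = 0.274) and 2.49 ± 0.38 with fenofibrate (adjusted p = 0.00521). The difference of 2.06 ± 0.46 missed the threshold (adjusted p = 0.0886). The element bound by ATF4 with C/EBP factors, searched as TGATGNAAN, was in 4 of 23 matched promoters of the list (17.4%, in Asns, Atf3, Fgf21 and Pck2), beside 1.8% of the promoters of genes tested and 3.5% of all promoters. Of these 4 genes with a match, Fgf21 alone was called, and Asns, Atf3 and Pck2 were called in neither experiment. The Fgf21 match, on the other strand, is shown in capitals within chr7:45615611-45615640, minus strand.
Fgf21: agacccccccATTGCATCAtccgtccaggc

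Enzymes of central carbon metabolism rose with fenofibrate. In the TCA cycle, 6 of 26 genes rose with fenofibrate, beside 3.42% of all genes tested, and none was called without it. The medians were 0.03 and 0.32, and the difference was 0.30, or 0.26 with the length trend removed, with 10 members at an unadjusted p under 0.05, all higher. All B2D+FF mice (0.20 to 0.45) were above all Ctrl+FF mice (-0.04 to 0.07) for the mean of the list, whereas B2D mice (-0.14 to 0.29) overlapped Ctrl. The 6 calls became 4 without Ctrl+FF mouse 1. Such a separation upward with fenofibrate, with overlap without it, was found in 13 of the 65 function lists. Separation without fenofibrate alone was found downward in 5 lists and upward in 1. The part of the smaller groups with fenofibrate in these counts was not tested. Mdh2, the mitochondrial malate dehydrogenase, rose by 0.70 ± 0.11 (adjusted p = 0.00495), beside 0.10 ± 0.12 without fenofibrate (adjusted p = 0.694), and the difference of 0.60 ± 0.16 was not called (adjusted p = 0.132). Idh3a, Fh1 and Idh2, enzymes of the same cycle, rose by 0.78 ± 0.10, 0.70 ± 0.13 and 0.62 ± 0.11.

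In glycolysis, 6 of 24 genes rose with fenofibrate, and 1 (Aldoc) fell without it. The 6 calls became 2 without Ctrl+FF mouse 1 and 9 without B2D+FF mouse 2. The medians were 0.11 and 0.17 and the difference 0.27, or 0.16 with the length trend removed. Aldoa, a fructose-bisphosphate aldolase, had FPKM of 43.2 to 52.4 in Ctrl, 44.5 to 60.1 in B2D, 44.0 to 47.0 in Ctrl+FF and 69.8 to 118 in B2D+FF. It rose with fenofibrate by 1.00 ± 0.15 (adjusted p = 0.00495), beside 0.10 ± 0.12 without it (adjusted p = 0.665). The difference of 0.90 ± 0.19 missed the threshold (adjusted p = 0.0635). Pgk1 and Eno1, which act further down the pathway, rose by 0.55 ± 0.12 and 0.63 ± 0.10. In gluconeogenesis, Pck1, its cytosolic rate-limiting enzyme, rose by 0.84 ± 0.18 (adjusted p = 0.0253), beside -0.00 ± 0.17 without fenofibrate. Its mean FPKM was 1261 in Ctrl, 1261 in B2D, 542 in Ctrl+FF and 975 in B2D+FF, so the rise started from a lower control level. The urea cycle enzymes Asl and Ass1 also rose with fenofibrate, by 1.14 ± 0.22 and 0.75 ± 0.17, beside 0.36 ± 0.22 and 0.01 ± 0.20, again from lower control levels (101 against 223 FPKM for Asl and 656 against 1511 for Ass1). Of the 44 genes of urea synthesis and amino acid breakdown, 6 rose with fenofibrate, and 3 fell and 1 rose without it. The 6 calls became 4 without B2D+FF mouse 4 and 9 without B2D+FF mouse 2, and the 3 became 0 without Ctrl mouse 2. The 1 higher call without fenofibrate became 6 without Ctrl mouse 3, as many as were called with fenofibrate, and 0 without B2D mouse 2.

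Targets of the xenobiotic receptors CAR and PXR rose in part in both experiments. Of 31 tested, 3 rose and 2 fell without fenofibrate, and 9 rose and 1 fell with it. The 9 calls became 5 without B2D+FF mouse 4. The medians were 0.07 and 0.40 and the difference 0.32, or 0.24 with the length trend removed, with 13 members higher and 1 lower at an unadjusted p under 0.05. Cyp2b10, the classical CAR target, had FPKM of 0 to 0.136 in Ctrl, 0.697 to 10.6 in B2D, 0.548 to 3.07 in Ctrl+FF and 36.1 to 49.0 in B2D+FF. It rose by 1.82 ± 0.35 and 4.19 ± 0.25 (adjusted p = 0.0125 and 2.84e-05). The difference of 2.37 ± 0.50 missed the threshold (adjusted p = 0.0635). Cyp3a11, the main PXR target, rose with fenofibrate by 0.76 ± 0.16 (adjusted p = 0.0229), beside 0.08 ± 0.22 without it (adjusted p = 0.879).

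Targets of NRF2, the factor that responds to oxidants through the antioxidant response element, split between the experiments. Of 49 tested, 4 fell without fenofibrate (Gsta3, Gstp1, Prdx6 and Akr1c13) and none rose, while 7 rose with it (Nqo1, Mgst3, Ephx1, Cbr1, Ugdh, Htatip2 and Maff) and none fell. The 4 calls became 1 without B2D mouse 2, and the 7 became 4 without B2D+FF mouse 4 and 10 without B2D+FF mouse 3. The medians were -0.06 and 0.17, and the first turned to 0.02 under quantile normalization and to 0.01 with the length trend removed. The median difference was 0.24, or 0.15 with the length trend removed. Of its members, 3 were called for the difference, all positive (Gstp1, Cbr1 and Maff). Immediate-early genes gave 8 called members of 34 with fenofibrate and 1 (Sgk1) without it, all higher, with medians of 0.27 and 0.52. The 8 calls became 4 without Ctrl+FF mouse 1 and 12 without B2D+FF mouse 2, and the median difference of 0.25 became 0.05 without B2D+FF mouse 2 and 0.15 with the length trend removed. Btg2 and Junb, both induced early by growth and stress signals, rose by 1.32 ± 0.23 and 1.16 ± 0.25 with fenofibrate, beside -0.01 ± 0.22 and -0.08 ± 0.33.

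Lipogenic and acute-phase genes had more lower calls with fenofibrate than without it. Of 25 genes of fatty acid synthesis under SREBP-1c, 6 fell and 1 rose with fenofibrate, and 1 (Elovl3) fell without it. The 6 calls became 4 without B2D+FF mouse 1. The medians were -0.09 and -0.21, the first turning to 0.04 under quantile normalization. The median difference was -0.10, or -0.21 with the length trend removed. Srebf1, the gene of SREBP-1c itself, had FPKM of 23.7 to 30.1 in Ctrl+FF and 7.61 to 11.6 in B2D+FF, against 5.1 to 11.5 in Ctrl and 2.67 to 9.97 in B2D. It fell by 1.45 ± 0.14 (adjusted p = 0.000423), beside -0.54 ± 0.27 without fenofibrate (adjusted p = 0.284). The B2D+FF levels were below all Ctrl+FF levels and in or just above the range of Ctrl. Scd1, the stearoyl-CoA desaturase, and Fasn, the fatty acid synthase, fell by 1.74 ± 0.30 and by 0.68 ± 0.17. Saa2, an acute-phase serum amyloid A gene with the similar copy Saa1, fell by 1.81 ± 0.26 (adjusted p = 0.00329), beside 0.13 ± 0.35 without fenofibrate. Of 40 acute-phase genes, 8 fell and 2 rose with fenofibrate, and 2 fell and 2 rose without it. As a list they were close in both experiments, with medians of -0.03 and -0.09, and 23 and 22 negative effects. Their median difference was -0.08, or -0.14 with the length trend removed and 0.00 without B2D+FF mouse 2.

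Another set of lists had lower medians without than with fenofibrate. In the pathway from tryptophan to NAD, the medians were -0.25 and 0.04, the second turning to -0.01 under quantile normalization and -0.02 under upper-quartile rescaling, although calls were about as many in each experiment: 5 of 21 genes fell without fenofibrate, and 5 fell and 1 rose with it, 4 of them alike. The difference was positive in all 21 members, beside 54.2% of all genes tested, with a median of 0.27, or 0.21 with the length trend removed, and 6 members at an unadjusted p under 0.05. All B2D mice were below all Ctrl mice for the mean of the list, and the B2D+FF mice overlapped Ctrl+FF. The 5 calls without fenofibrate became 3 without Ctrl mouse 2, and the 5 lower calls with it became 0 without Ctrl+FF mouse 1. Ido2 and Afmid, which open the pathway, fell alike, by 1.18 ± 0.15 and 0.91 ± 0.15 without and by 1.02 ± 0.21 and 0.68 ± 0.13 with fenofibrate. Nampt, the salvage enzyme that makes NMN, fell without fenofibrate by 0.71 ± 0.15 (adjusted p = 0.0231), beside 0.01 ± 0.11 with it (adjusted p = 0.976), and the difference was 0.72 ± 0.21 (adjusted p = 0.155).

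Heme synthesis, the circadian clock and cholesterol synthesis gave the same order of the medians. Of 15 heme genes, 3 fell without fenofibrate (Alas1, Alad and Abcb10) and 1 (Slc25a38) with it. Their medians were -0.20 and -0.01, and the median difference was 0.12, or 0.04 with the length trend removed. Alas1, the rate-limiting enzyme of heme synthesis, had FPKM of 324, 283, 301, 273 and 272 in Ctrl and 177, 206, 150, 173 and 113 in B2D, against 145, 149, 179 and 218 in Ctrl+FF and 183, 256, 195 and 173 in B2D+FF. It fell by 0.85 ± 0.15 without fenofibrate (adjusted p = 0.00799), beside 0.23 ± 0.16 with it (adjusted p = 0.433). The difference of 1.08 ± 0.23 missed the threshold (adjusted p = 0.0635), and Ctrl+FF levels were themselves within the B2D range or just above it. The circadian list had the largest positive median difference of the 65 lists, 0.37, or 0.40 with the length trend removed, with medians of -0.30 and -0.02. Of its 23 genes, 3 fell without fenofibrate and 2 rose with it, 7 members were higher and 2 lower for the difference at an unadjusted p under 0.05, and none was called. The 3 calls became 2 without B2D mouse 2 and 5 without B2D mouse 5. The time of day of harvest was not given in the sources used here, and its part in the circadian difference was not tested. Cholesterol synthesis genes had medians of -0.25, -0.01 and 0.27 for the difference, with 2 of 27 lower without fenofibrate and 1 higher with it. The 2 lower calls became 0 without Ctrl mouse 1 and 5 without Ctrl mouse 3. With fenofibrate, the lower calls went from 0 to 5 without B2D+FF mouse 3, and the 1 higher call became 0 without Ctrl+FF mouse 1 and 3 without B2D+FF mouse 4.

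Genes of flavin-dependent enzymes other than those of fatty acid oxidation were mixed in direction. Of 83 tested, 53 had a negative effect without fenofibrate and 42 with it. For the mean of the list, B2D mice lay at -0.08 to -0.28 and Ctrl mice at -0.06 to 0.08, without overlap, whereas B2D+FF mice overlapped Ctrl+FF. Of the single genes, 7 fell and 1 rose without fenofibrate, and 5 fell and 7 rose with it. The 7 lower calls became 1 without Ctrl mouse 4, and with fenofibrate the 5 lower calls became 1 and the 7 higher calls 2 without Ctrl+FF mouse 1. The medians were -0.10, -0.01 and 0.13 for the difference. Hao1, the peroxisomal glycolate oxidase, fell without fenofibrate by 1.30 ± 0.21 (adjusted p = 0.00524), beside -0.49 ± 0.14 with it (adjusted p = 0.0627). Fmo2, a flavin-containing monooxygenase, rose in both, by 1.67 ± 0.26 and 1.09 ± 0.15. Genes of fatty acid uptake and mitochondrial beta-oxidation, which hold the acyl-CoA dehydrogenases, had no call among 32 without fenofibrate. With it, 1 was lower (Acsl1) and 2 were higher (Acsl4 and Acadl), beside 3.05% and 3.42% of all genes tested. Of 26 genes of peroxisomal oxidation, 1 fell and 1 rose without fenofibrate, and 1 rose with it. Without fenofibrate, the lower call was lost without B2D mouse 4 and the higher call without B2D mouse 2. The 39 PPARα targets listed outside fatty acid oxidation had medians of 0.19 and 0.18. Of these, 1 fell and 2 rose without fenofibrate, and 2 fell and 4 rose with it. The 2 higher calls without fenofibrate became 0 without B2D mouse 3. Pdk4, a kinase that turns off pyruvate dehydrogenase, and Ehhadh, the peroxisomal bifunctional enzyme, rose without fenofibrate by 1.19 ± 0.29 and 0.97 ± 0.25. The 7 genes of riboflavin transport and flavin cofactor synthesis had no call in either experiment.

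Medians of opposite sign in the 2 experiments were found for the mitochondrial gene groups, with few calls. The nuclear genes of respiratory complex I, the largest flavin-containing entry point of the chain, had medians of -0.13 without and 0.16 with fenofibrate. All 36 differences were positive, beside 54.2% of all genes tested. The median difference was 0.26, or 0.16 with the length trend removed, when the median without fenofibrate became -0.00. In the quintile of highest mean FPKM, the median difference of all genes tested was 0.144. For the mean of the complex I list, the groups overlapped in both experiments. The same held for the lists of complexes II to V, mitochondrial ribosomal proteins and the proteasome. Complexes II to V had medians of -0.08 and 0.22 and a difference of 0.33, or 0.17 with the length trend removed, and the first median turned to 0.05 under quantile normalization and to 0.02 with the length trend removed. In complexes II to V 7 of 41 genes rose with fenofibrate, which became 1 without B2D+FF mouse 1. Mitochondrial ribosomal proteins had medians of -0.14 and 0.12 and a difference of 0.27, or 0.17 with the length trend removed. Of 77, 1 (Mrpl1) fell without and 3 rose with fenofibrate, beside 2.36% and 3.42% of all genes tested. Those 3 became 0 without B2D+FF mouse 1. Leaving out B2D mouse 3 or B2D+FF mouse 1, the extremes of the length trend, gave median differences of 0.17 and 0.21 for complex I, 0.24 and 0.24 for complexes II to V, and 0.25 and 0.22 for mitochondrial ribosomal proteins. Proteasome genes behaved similarly, with medians of -0.12, 0.08 and 0.21, the last becoming 0.09 with the length trend removed.

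As deposited, the subunits encoded by mitochondrial DNA had medians of opposite sign to those of their nuclear-encoded partners. With fenofibrate this opposition was lost under quantile normalization, and none of the 13 genes was called in either experiment. All 13 had a positive effect without fenofibrate, beside 49.5% of all genes tested, with a median of 0.37. With fenofibrate the median was -0.06, which turned to 0.06 under quantile normalization. The median difference was -0.45, or -0.61 with the length trend removed, and it was negative in 12 of 13, with 7 at an unadjusted p under 0.05 and none called. mt-Nd5, a complex I subunit, had effects of 0.55 and -0.28 and a difference of -0.83 (adjusted p = 0.138), and mt-Co1, of complex IV, effects of 0.18 and -0.46 and a difference of -0.64 (adjusted p = 0.254). The mean of the list was 0.05, 0.16, 0.26, 0.73 and 0.54 above the Ctrl mean in the 5 B2D mice, with Ctrl between -0.27 and 0.25, and -0.25, 0.02, -0.05 and -0.01 from the Ctrl+FF mean in the 4 B2D+FF mice. The groups thus overlapped in both experiments. These genes share 1 transcribed genome and the read share given above, and the part of that share in this result was not tested. Histone and chromatin genes, which are long, had medians of 0.09, -0.04 and -0.13 for the difference, with 12 lower at an unadjusted p under 0.05. With the length trend removed, the median difference became -0.06 and the 12 became 5.

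Turning to single genes, 12 were called for the difference, and they are given with every mouse's FPKM and with gene positions in GRCm38 (mm10). The largest positive difference was in Slc25a4 (chr8:46206797-46211284, minus strand), which encodes the ADP/ATP carrier of muscle and heart mitochondria, ANT1. Its FPKM was 2.34, 1.86, 2.54, 2.16 and 1.87 in Ctrl, 1.78, 2.76, 1.07, 1.53 and 1.65 in B2D, 6.99, 4.6, 8.39 and 5.37 in Ctrl+FF and 64.5, 35.7, 28.3 and 48.8 in B2D+FF. B2D overlapped Ctrl, and all B2D+FF mice were above all other mice. The effects were -0.22 ± 0.14 without (adjusted p = 0.402) and 2.59 ± 0.24 with fenofibrate (adjusted p = 0.000383), and the difference was 2.81 ± 0.28 (adjusted p = 4.79e-05). Slc25a5, the related carrier ANT2, which is far higher in liver, had mean FPKM of 328, 349, 407 and 634 in the 4 groups and rose by 0.64 ± 0.11 with fenofibrate (adjusted p = 0.0091), beside 0.08 ± 0.14 without it, with a difference of 0.56 ± 0.17 (adjusted p = 0.193).

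**Figure D5:**
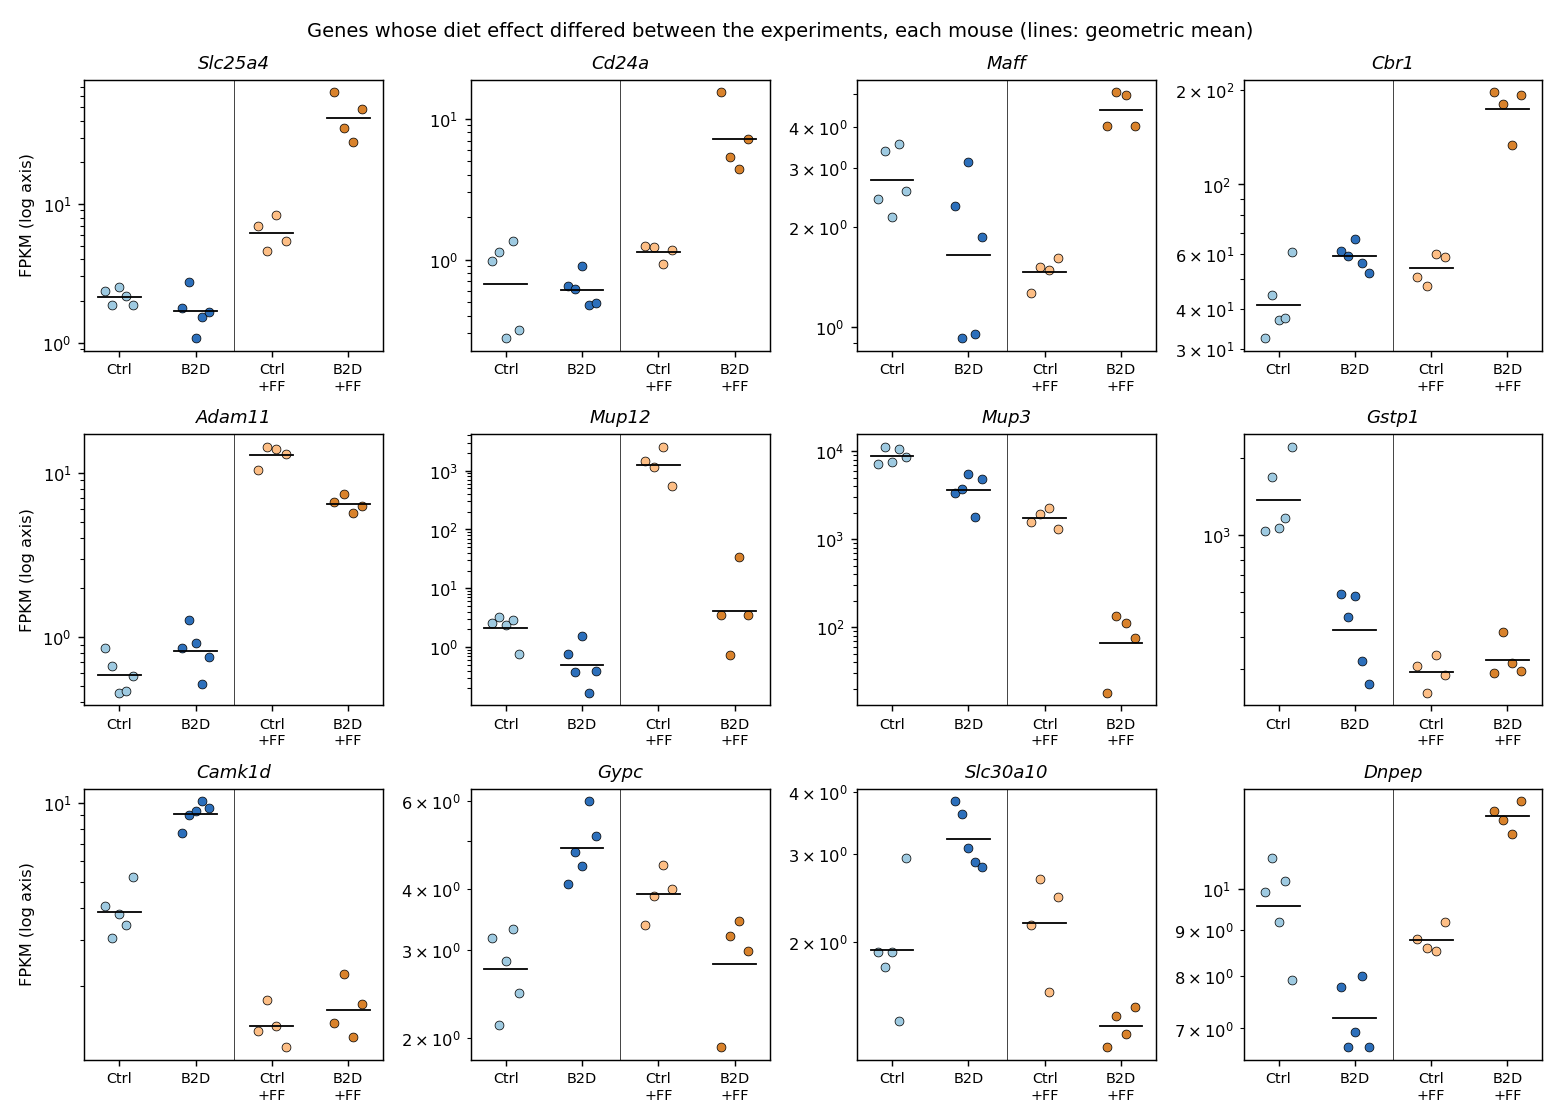
FPKM in each mouse of the 12 genes called for the difference of diet effects, on a log10 axis, with points for mice and bars for geometric group means. In Slc25a4, Cd24a, Maff and Cbr1 the B2D+FF mice are above all others, and in Gypc, Camk1d and Gstp1 the groups separate without fenofibrate alone.

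Cd24a (chr10:43578284-43584265, plus strand) encodes a small mucin-like surface protein of progenitor and immune cells. Its FPKM was 0.98, 1.14, 0.275, 1.35 and 0.315 in Ctrl, 0.653, 0.613, 0.905, 0.479 and 0.489 in B2D, 1.25, 1.22, 0.937 and 1.17 in Ctrl+FF and 15.5, 5.32, 4.38 and 7.22 in B2D+FF. All B2D+FF mice were above all others. The effects were -0.11 ± 0.16 and 1.95 ± 0.28, and the difference was 2.06 ± 0.34 (adjusted p = 0.0106). Cbr1 (chr16:93605853-93610505, plus strand), a carbonyl reductase, had FPKM of 32.3, 44.4, 37, 37.6 and 60.8 in Ctrl, 61.4, 59.2, 67.1, 56 and 52.3 in B2D, 50.8, 47.5, 60 and 58.9 in Ctrl+FF and 197, 180, 134 and 193 in B2D+FF. Its levels were higher in B2D+FF than in any other mouse, whereas B2D and Ctrl overlapped. The effects were 0.50 ± 0.15 (adjusted p = 0.0948) and 1.67 ± 0.14 (adjusted p = 0.000235), and the difference was 1.17 ± 0.22 (adjusted p = 0.0292).

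Maff (chr15:79346621-79359076, plus strand), a small MAF protein that pairs with NRF2 family factors, had effects of opposite sign. Its FPKM was 2.43, 3.39, 2.15, 3.54 and 2.56 in Ctrl, 2.32, 0.926, 3.14, 0.953 and 1.87 in B2D, 1.27, 1.52, 1.49 and 1.62 in Ctrl+FF and 4.03, 5.08, 4.97 and 4.03 in B2D+FF. The B2D mice overlapped Ctrl, and the B2D+FF mice were above all others. The effects were -0.47 ± 0.20 (adjusted p = 0.203) and 1.16 ± 0.09 (adjusted p = 0.000161), and the difference was 1.63 ± 0.25 (adjusted p = 0.00799). Dnpep (chr1:75307896-75317990, minus strand), the aspartyl aminopeptidase, was opposite too, on a smaller scale. Its FPKM was 9.92, 10.8, 9.19, 10.2 and 7.92 in Ctrl, 7.79, 6.67, 6.93, 8 and 6.67 in B2D, 8.8, 8.6, 8.53 and 9.18 in Ctrl+FF and 12.2, 11.9, 11.5 and 12.5 in B2D+FF. The B2D mice were mostly lower than Ctrl, with an overlap of 1 mouse in each group (8 against 7.92), while the B2D+FF mice were above all other mice. The effects were -0.36 ± 0.10 (adjusted p = 0.0745) and 0.41 ± 0.08 (adjusted p = 0.0108), and the difference was 0.78 ± 0.12 (adjusted p = 0.00965).

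These 2 promoters are shown because both hold the core of the antioxidant response element, searched as TGACNNNGC. Promoter sequence was matched for 8 of the 12 genes, and these 2 (25.0%) held a match, beside 10 of 43 for the NRF2 list (23.3%), 12.2% of the promoters of genes tested and 10.1% of all promoters. The Dnpep promoter also holds the clock-type E-box CACGTG, found in 8.9% of the promoters of genes tested, 6.0% of all promoters and 5 of 19 of the circadian list (26.3%). The windows are chr15:79346499-79346528 on the plus strand for Maff, and chr1:75317821-75317850 and chr1:75317710-75317739 on the minus strand for Dnpep, with the match in capitals.
Maff, antioxidant response element: gggcgtctcaTGACTCTGCcactggaaaga
Dnpep, antioxidant response element: agagtaggcgTGACGGGGCggagctagtgg
Dnpep, E-box: agctgactagtcCACGTGgttagaacgcag

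Slc30a10 and Gypc were opposite in the other direction. Slc30a10 (chr1:185454848-185468762, plus strand), the manganese exporter, had FPKM of 1.91, 1.78, 1.91, 1.39 and 2.95 in Ctrl, 3.83, 3.6, 3.08, 2.89 and 2.82 in B2D, 2.16, 2.67, 1.59 and 2.46 in Ctrl+FF and 1.23, 1.42, 1.31 and 1.48 in B2D+FF. It was the single gene called in both experiments with opposite signs. B2D overlapped Ctrl through Ctrl mouse 5, and all B2D+FF mice were below all other mice apart from Ctrl mouse 4. It rose by 0.52 ± 0.13 without fenofibrate (adjusted p = 0.0421) and fell by 0.44 ± 0.11 with it (adjusted p = 0.0369). The difference was -0.96 ± 0.18 (adjusted p = 0.0292). Gypc (chr18:32528322-32560034, minus strand), the membrane protein glycophorin C, had FPKM of 3.18, 2.12, 2.85, 3.31 and 2.46 in Ctrl, 4.08, 4.75, 4.45, 6.01 and 5.1 in B2D, 3.37, 3.86, 4.47 and 4 in Ctrl+FF and 1.91, 3.21, 3.44 and 2.99 in B2D+FF. All B2D mice were above all Ctrl mice, and B2D+FF overlapped Ctrl+FF. It rose by 0.64 ± 0.12 without fenofibrate (adjusted p = 0.0109), beside -0.35 ± 0.13 with it (adjusted p = 0.134). The difference was -0.99 ± 0.18 (adjusted p = 0.0292). The red cell marker Alas2, in contrast, fell in both experiments, by 1.36 ± 0.22 and 1.37 ± 0.11, with a difference of -0.01 ± 0.28.

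Camk1d and Gstp1 were called without fenofibrate and not with it. Camk1d (chr2:5293457-5714515, minus strand), a calcium/calmodulin-dependent kinase, had FPKM of 4.06, 3.07, 3.77, 3.43 and 5.22 in Ctrl, 7.72, 8.99, 9.36, 10.2 and 9.57 in B2D, 1.35, 1.78, 1.41 and 1.17 in Ctrl+FF and 1.45, 2.23, 1.28 and 1.71 in B2D+FF. It rose by 1.06 ± 0.12 without fenofibrate (adjusted p = 0.000924), beside 0.13 ± 0.12 with it, and both groups with fenofibrate were below all mice without it. The difference was -0.93 ± 0.17 (adjusted p = 0.0292). Gstp1 (chr19:4035407-4037921, minus strand), a male-biased glutathione transferase whose reads can be shared with Gstp2, had FPKM of 1040, 1680, 1060, 1160 and 2210 in Ctrl, 587, 479, 579, 322 and 263 in B2D, 309, 242, 341 and 285 in Ctrl+FF and 289, 420, 317 and 294 in B2D+FF. It fell by 1.68 ± 0.26 without fenofibrate (adjusted p = 0.00396), beside 0.16 ± 0.15 with it. The difference was 1.84 ± 0.35 (adjusted p = 0.0292), and the Ctrl+FF levels, 242 to 341, lay in or below the lower part of the B2D range.

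Adam11 (chr11:102761439-102780262, plus strand), a catalytically inactive ADAM protein, fell only with fenofibrate by the test of the difference. Its FPKM was 0.853, 0.67, 0.456, 0.471 and 0.582 in Ctrl, 0.853, 1.27, 0.915, 0.518 and 0.752 in B2D, 10.5, 14.5, 14.1 and 13.1 in Ctrl+FF and 6.68, 7.44, 5.69 and 6.28 in B2D+FF. All B2D+FF mice were below all Ctrl+FF mice and far above the mice without fenofibrate. The effects were 0.21 ± 0.11 and -0.90 ± 0.11, and the difference was -1.10 ± 0.16 (adjusted p = 0.00593). Mup12 (chr4:60737383-60741326, minus strand) and Mup3 (chr4:62083476-62087342, minus strand) encode major urinary proteins, pheromone carriers that male liver secretes. Mup12 had FPKM of 2.61, 3.29, 2.41, 2.88 and 0.775 in Ctrl, 0.762, 0.38, 1.54, 0.167 and 0.398 in B2D, 1460, 1160, 2570 and 542 in Ctrl+FF and 3.49, 0.743, 33.9 and 3.48 in B2D+FF. Mup3 had FPKM of 7170, 11300, 7590, 10500 and 8660 in Ctrl, 3370, 3710, 5450, 1810 and 4820 in B2D, 1580, 1950, 2260 and 1290 in Ctrl+FF and 17.9, 133, 112 and 74.6 in B2D+FF. Both fell in each experiment, and further with fenofibrate. Without fenofibrate Mup12 overlapped its controls through Ctrl mouse 5, and the other comparisons had no overlap. The differences were -6.68 ± 0.82 for Mup12 (adjusted p = 0.00052) and -3.35 ± 0.59 for Mup3 (adjusted p = 0.0215). With reads that can be split between near-identical Mup copies, these 2 values are uncertain.

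The 12 calls were not equally stable. Slc25a4, Cd24a, Maff, Adam11, Dnpep and Mup12 were called in each of the 18 fits with 1 mouse left out. Mup3 was called in 16 of these fits, Gypc in 12, Gstp1, Cbr1 and Slc30a10 in 7 and Camk1d in 5. The highest adjusted p was 0.0992 for the last 4 genes, each time without Ctrl+FF mouse 2, and 0.0872 for Gypc and 0.0701 for Mup3 without the same mouse. With voom on the recovered read counts, 4 genes missed the threshold, namely Mup12 (adjusted p = 0.103), Cd24a (0.147), Gypc (0.0569) and Camk1d (0.113). With quantile normalization Gstp1 (0.131) and Cbr1 (0.108) missed it, and some further alternatives lost Gstp1, Cbr1, Cd24a or Camk1d. The sign of the difference was the same in all these fits.

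Few markers of other cell types were called. The Kupffer cell and macrophage markers had medians of -0.23 and -0.30, with 12 and 11 of 13 effects negative, beside -0.27 and -0.21 for complement and -0.35 and -0.29 for interferon-stimulated genes. The red cell markers had medians of -0.30 and -0.57, with all 5 negative in both experiments, and the neutrophil markers 0.36 and 0.33, with all 3 positive in both. The stellate cell and fibroblast markers had medians of 0.03 and -0.19, and the cholangiocyte markers 0.00 and -0.26. The summed levels of the groups overlapped in each experiment for the macrophage markers. Of 13 Kupffer cell and macrophage markers tested, 2 (Clec4f and C1qa) fell without fenofibrate, by 0.47 ± 0.11 and by 0.50 ± 0.11, and none was called with it. Their summed FPKM was 172 to 212 in Ctrl, 133 to 186 in B2D, 140 to 258 in Ctrl+FF and 94.3 to 245 in B2D+FF. Of 12 sinusoidal endothelial markers, 1 (Lyve1) rose with fenofibrate, by 0.77 ± 0.15 (adjusted p = 0.0161), while the list had medians of 0.16 and -0.15. Their summed FPKM was 60.8 to 92.8, 71.7 to 86.7, 56.5 to 69.0 and 46.9 to 71.6 in the same order of groups. Of 12 stellate cell and fibroblast markers, 1 (Col3a1) fell with fenofibrate, and of 3 neutrophil markers 1 (S100a9) rose without it. Of 5 red cell markers, Alas2 fell in both. None of 3 cholangiocyte markers or of 1 pancreas marker was called, Amy2a5 was at 0 in every library, and no lymphocyte marker reached the minimum of the difference. The part of these cell types in the list differences was not tested.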

How the data were processed

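Liver mRNA of 18 mice was sequenced, and the deposited FPKM values were made by the authors, who aligned reads to mm10 with STAR and counted them with featureCounts; their methods call the unit RPKM. Versions were not given in the sources used here. The 2 tables, of 10 and 8 libraries, were normalized separately. Reads recovered from FPKM and gene length were whole for 100% of values (tolerance 0.05 reads). Members and lists were chosen with earlier results of these data known.

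Diet effects and their difference were fitted with limma 3.58.1 (R 4.3.3, trend) on log2(FPKM + 1), a scale that understates changes of low genes. Each diet effect was fitted in its own table, and the difference in a fit of all 18 libraries with 4 group means. Benjamini-Hochberg adjusted p-values over the 9937 genes were called under 0.05. The steps were tested on simulated data. Groups came from the treatment labels. The p-values set the effects against the spread between mice within groups, pooled over the groups of each fit and moderated by limma.

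Named were up to 4 genes per class, leaving out predicted and Mup symbols, and per list up to 2 members called for the difference and 1 called alike; 76 further genes were chosen as examples after their values were seen. Alternatives were other pseudocounts, filters, scalings and variance models, voom on recovered reads, and leaving out each mouse. Promoters were the first RefSeq entry per symbol (GRCm38.p6, 27025 promoters), matched for 7904 symbols.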

Additional observations from a re-analysis of the deposited data

Results flagged for a closer look

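The difference of the diet effects itself was called for 12 genes (limma, adjusted p under 0.05, log2(FPKM + 1) scale). It was positive for Slc25a4 (2.81), Cd24a (2.06), Gstp1 (1.84), Maff (1.63), Cbr1 (1.17) and Dnpep (0.78), and negative for Mup12 (-6.68), Mup3 (-3.35), Adam11 (-1.10), Gypc (-0.99), Slc30a10 (-0.96) and Camk1d (-0.93).

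Among the 117 named genes, 468 groups of mice were examined for a mouse far from the rest by Dixon's test, and 23 were found, where chance gives about 1 in 20 groups. In FPKM, mice above their group were Serpina1e in B2D+FF mouse 1 (12.7), Vldlr in B2D mouse 4 (2.05), Slc16a5 in Ctrl mouse 3 (18.8), Cfd in B2D mouse 2 (28.5), Ugdh in Ctrl mouse 5 (22.6), Sult1e1 in Ctrl mouse 1 (0.0905), Saa1 and Saa2 in B2D mouse 5 (32.8 and 8.81), Cidea in B2D mouse 2 (8.15), Hamp2 in Ctrl mouse 3 (28.4) and Alas2 in B2D mouse 3 (15.2). Mice below their group were Fmo2 in B2D+FF mouse 2 (6.7), Apol9b in Ctrl+FF mouse 4 (7.16), Mup12 in Ctrl mouse 5 (0.775), Mmp15 in Ctrl+FF mouse 3 (3.98), Tat in Ctrl+FF mouse 2 (175), Fgf21 in B2D mouse 4 (10.9), Scd1, Fasn and Ephx1 in Ctrl+FF mouse 3 (1140, 12.9 and 193), Ndufv1 in B2D+FF mouse 2 (77.0), Sqor in B2D mouse 2 (11.6) and Alas2 in B2D+FF mouse 2 (4.11). Saa1 and Saa2 stood apart in the same mouse, as did Scd1, Fasn and Ephx1.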

How the results depend on the processing

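The 12 called differences became 109 with array weights, 4 at a mean FPKM of at least 5, 26 with no filter, 19 with one variance level per table, and 1261 by unadjusted p, against 10 with the gene-length trend removed, 10 with upper-quartile rescaling, 11 with quantile normalization and 8 with voom. The 345 calls without fenofibrate became 220 at a mean FPKM of at least 5, 202 with no filter, 732 with the spread shared by both tables and 1943 unadjusted. The 643 calls with fenofibrate became 1089 with array weights, 405 with the shared spread and 2310 unadjusted. The 116 genes called alike became 180 with array weights, 45 with no filter and 542 unadjusted. The 3 called only without fenofibrate became 53 with array weights, 1 at a mean FPKM of at least 5, 5 with no filter, 6 with one variance level per table, 1 with voom and 469 unadjusted. The 6 called only with fenofibrate became 41 with array weights, 2 at a mean FPKM of at least 5, 18 with no filter and 502 unadjusted. The 4 opposite genes became 7 over all gene types, 28 with array weights, 1 at a mean FPKM of at least 5 and 28 unadjusted. With 1 mouse left out, the counts ran from 6 to 30 for the difference, 142 to 382 without fenofibrate, 235 to 731 with it, 64 to 123 alike, 0 to 14 only without, 4 to 13 only with and 2 to 7 opposite. The minimum of 5 tests fewer genes; the cause of the other shifts was not tested. No called effect of a named gene reversed its direction under the alternatives. The signs of effects near 0 are not covered by this statement. The excess of higher over lower calls with fenofibrate (340 and 303) did turn to the opposite. This held under upper-quartile rescaling (242 and 384), length-trend removal (326 and 381), median subtraction (298 and 335) and quantile normalization (324 and 331). It also held without Ctrl+FF mouse 2 (120 and 124). No paired analysis was possible because the labels give the groups no shared replicate numbers. A missed threshold does not show equal diet effects.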
